A study of Saccharomyces cerevisiae with 12 samples.

Results

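Transcript levels of 51 genes for ribosome assembly and RNA polymerase I were followed in Saccharomyces cerevisiae, out of 5449 yeast genes named on the arrays. The members were taken from a list of gene names, not from measured values, and each was represented by its brightest probe set. All 51 were measured, and none had more than 1 probe set. By role, 6 belong to the small nucleolar ribonucleoproteins, 18 act mainly on the small ribosomal subunit, 19 act mainly on the large subunit, 7 are subunits of RNA polymerase I, and 1, SFP1, is a regulator. RNA polymerase I transcribes the long precursor of the ribosomal RNAs in the nucleolus. Small nucleolar ribonucleoproteins modify the precursor, and large assemblies such as the small subunit processome fold and cut it while ribosomal proteins are added. In budding yeast the genes of this pathway are known to be transcribed together in proportion to growth.

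The study asked which genes respond to Mss11 and Flo8, transcription factors that activate the adhesin gene FLO11, and which of the responses extra Flo11 alone could give. Cultures of 5 ml were grown at 30 °C in minimal dropout medium with 2% glucose, and each was hybridised to 1 of 12 Affymetrix yeast arrays. The first set held 3 arrays of a Σ1278b wild type and 3 arrays of Σ1278b overexpressing FLO11 from the strong constitutive PGK1 promoter on a multicopy plasmid. The second set held 1 array each of a Σ1278b wild type, Σ1278b with multicopy FLO8, Σ1278b with multicopy MSS11, Σ1278b with MSS11 replaced by LEU2, the S288c wild type, and S288c with multicopy MSS11. The wild types and the deletion strain carried an empty vector. Σ1278b is an invasive strain, here labelled MATα, with the markers ura3, trp1, leu2 and his3. The study's strain list gives the strain with these markers as MATa. The S288c strain was BY4742, also MATα, with his3, leu2, lys2 and ura3 mutations, and S288c strains carry a nonsense mutation in FLO8. The 6 groups of the second set had no replicates here, so their differences are values without a test of the strain's own spread. The labels place the harvest in early stationary phase, whereas the methods describe cultures still growing, and this bears on genes that follow growth.

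The median log2 intensity of the S. cerevisiae probe sets was 10.72 to 10.84 on the 12 arrays. FLO11, FLO8 and MSS11 followed the labels on every array. The sets differed in marker genes of the strains and plasmids, the FLO11 plasmid carrying LEU2 and the MSS11 plasmid being of a URA3 vector series. URA3, which makes cells independent of uracil, read 8.40 to 8.71 in the first set and 14.3 to 15.0 in the second. LEU2, the leucine marker, read 14.7 to 15.0 in the first set, and in the second 12.9 to 13.0 in 3 of the Σ1278b arrays, 14.3 in the deletion strain and 7.06 and 7.40 in S288c. Alpha-specific genes were high on all arrays. Of these, STE3 read 12.80 and 12.91 in the S288c wild type and S288c with extra MSS11, against 11.76 to 12.13 in Σ1278b. SAG1 read 13.52 and 13.56 against 12.20 to 13.43, and MF(ALPHA)1 14.48 and 14.56 against 14.55 to 14.71. The a-specific STE2, the receptor for alpha factor, read 12.1 and 10.7 in the S288c wild type and S288c with extra MSS11, against 7.40 to 8.55 in Σ1278b. MFA1, the a-factor gene, read 9.70 and 8.24 against 6.71 to 7.30, and BAR1, a protease of a cells, 9.17 and 7.56 against 6.38 to 6.86. All 3 a-specific genes measured were thus higher on both S288c arrays than on any Σ1278b array. The part of these differences in the results was not tested.

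All 51 members lay above the background level of 4.76 to 4.89 on every array, the lowest single value being 9.38. Over the 12 arrays the range of a member was 0.23 to 1.14 on the log2 scale, with a median of 0.63. The smallest range was that of NHP2, a core protein of the H/ACA particles that convert uridine to pseudouridine. By its mean over the 12 arrays NHP2 was also the brightest member, reading 13.88 to 14.10. The widest range was that of NOP4, which acts in large subunit maturation. The SD between replicate arrays, pooled over the first set, was 0.03 to 0.34 for the members, with a median of 0.09 against 0.07 over all 5498 probe sets. The highest array was a Σ1278b array for 49 of the 51 members, and the lowest was an S288c array for 37.

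**Figure D1:**
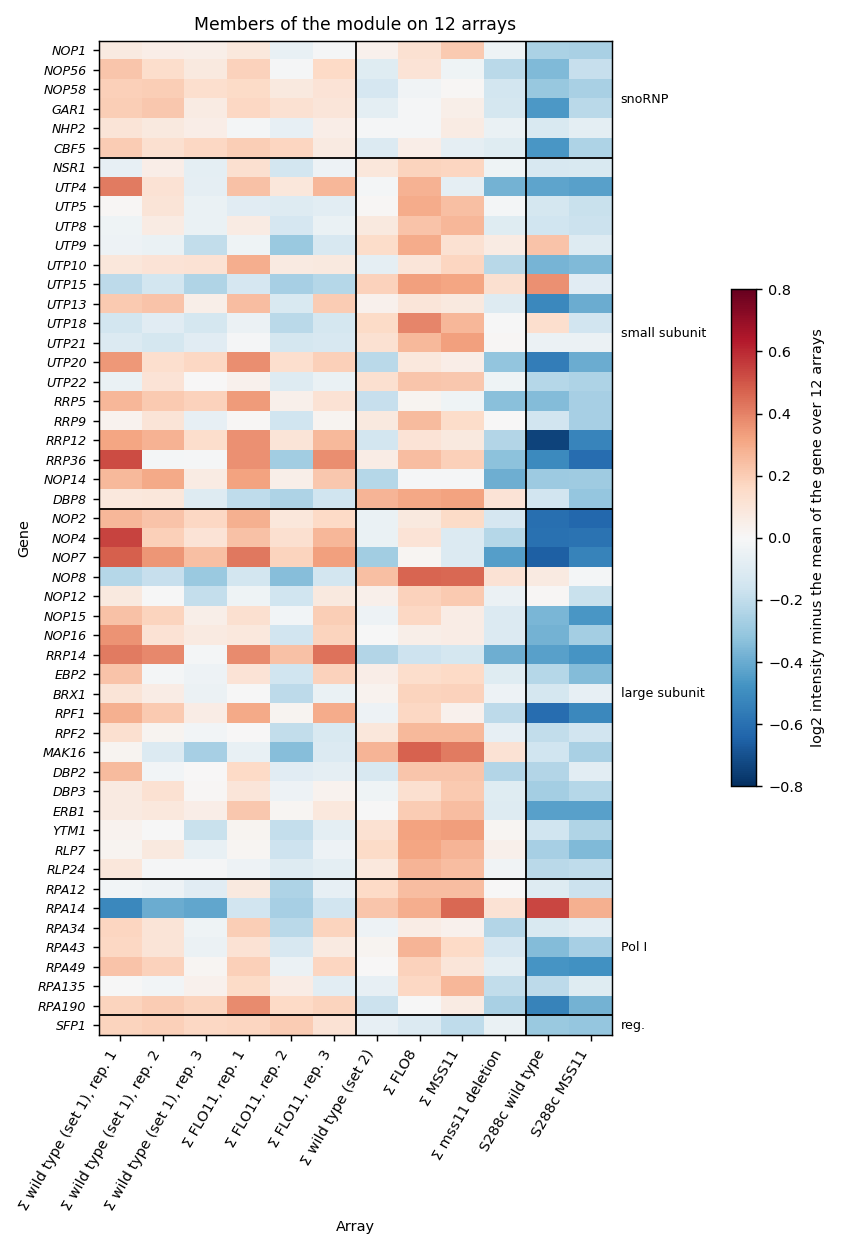
Colour shows the log2 intensity of each of the 51 genes (rows, grouped by role) on each of the 12 arrays (columns), minus the mean of the gene over all arrays. Vertical lines separate the first set, the second Σ1278b set and S288c, where most rows are at their lowest. RPA14, UTP15, NOP8 and MAK16 are low in the first set, and NOP7 and RRP14 are high there.

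Members differed together between replicate cultures. Taking each gene relative to its mean over the 12 arrays, the median of the members was 0.13, 0.10 and 0.00 in the wild type replicates of the first set, and 0.13, −0.10 and 0.07 in the FLO11 replicates. Between FLO11 replicates 1 and 2, 50 of 51 members were higher in replicate 1, by a median of 0.20 on the log2 scale, while 53.8% of all probe sets were higher. Between wild type replicates 1 and 3, 45 of 51 were higher in replicate 1, with a median of 0.13, while 46.1% of all probe sets were higher. These cultures shared strain, plasmid and set. Of the 6 pairs of replicates, the least separated were wild type 1 and 2, with 31 of 51 members higher in replicate 1 (45.5% of all probe sets) and a median of 0.03.

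Genes of several roles took part in the shift between replicates. RRP36, which is needed for early cleavages of the small subunit precursor, read 10.52, 9.98 and 9.99 in the wild type replicates and 10.36, 9.72 and 10.37 in the FLO11 replicates. UTP4, of the UtpA complex that binds the nascent precursor first, read 12.32, 12.02 and 11.83 in wild type and 12.14, 11.99 and 12.17 with FLO11. RPA34, which pairs with RPA49 in the polymerase, read 13.19, 13.12 and 12.99 in wild type and 13.22, 12.80 and 13.20 with FLO11. The groups overlapped for all 3 genes, and FLO11 replicate 2 was the lowest FLO11 array each time. SFP1, an activator of ribosome biogenesis and ribosomal protein genes, stayed within 10.86 to 10.95 on the 6 arrays of the first set.

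**Figure D2:**
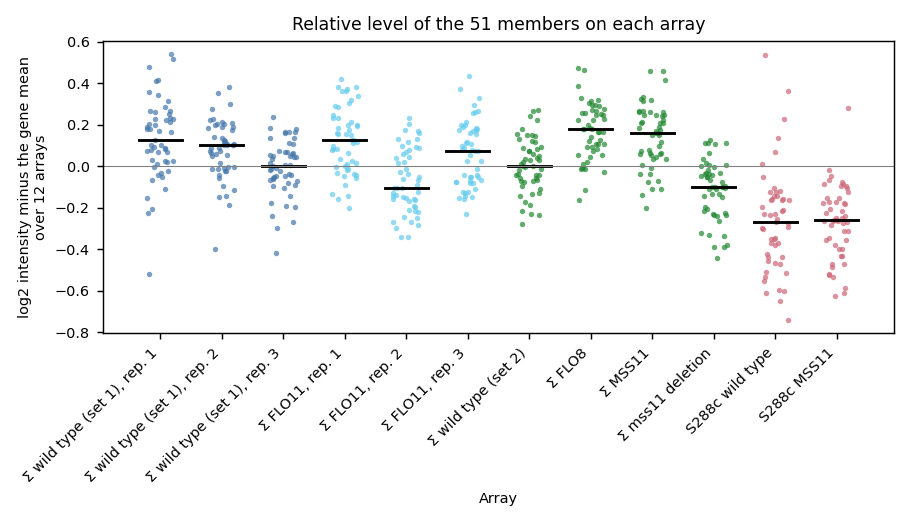
Each point is 1 of the 51 members on 1 array, as log2 intensity minus the mean of that gene over 12 arrays, and the bar is the median of the members. The medians of the replicated arrays span −0.10 to 0.13, and those of the S288c arrays are −0.27 and −0.26.

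FLO11 overexpression left nearly all members without a detectable difference. With limma over the 6 arrays of the first set and Benjamini-Hochberg adjustment over 5498 probe sets, 1 of 51 members passed an adjusted p of 0.05. It was higher, as were 3.8% of all probe sets. No member passed as lower, as did 2.55% of all probe sets, and at an unadjusted p under 0.05 there was 1 lower member, DBP8 (12.7% of all probe sets), and 1 higher, RPA14 (10.3%). The median of the members was −0.04 on the log2 scale and that of all probe sets −0.01. Of the 51, 13 were higher by any amount (44.2% of all probe sets) and 38 lower (55.8%).

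The gene that passed was RPA14, a subunit of the polymerase stalk, which it forms with RPA43. It read 11.00, 11.12 and 11.10 in wild type and 11.36, 11.25 and 11.36 with FLO11. The groups did not overlap. The rise was 0.25 (SE 0.05, adjusted p = 0.0414, limma), or 1.19-fold. The call was lost without each of the 6 arrays in turn, with adjusted p values of 0.0558 to 0.126, and it was lost with the replicate number as a block (adjusted p = 0.108). With the wild type arrays of both sets together the difference was 0.08 (adjusted p = 0.864, limma). RPA43 itself differed by −0.05, and the catalytic subunits RPA190 and RPA135 by 0.05 and 0.04.

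DBP8, a DEAD-box helicase of small subunit assembly, read 11.36, 11.36 and 11.17 in wild type and 11.07, 11.03 and 11.12 with FLO11. The groups did not overlap, and the difference was −0.23 (SE 0.06, adjusted p = 0.0864, limma). Without wild type replicate 3 it was −0.29 and passed (adjusted p = 0.0414, limma). In all, RPA14 alone stood above the wild type arrays without overlap (12.4% of all probe sets), and DBP8, UTP5 and RLP24 stood below them (17.1%). UTP5, another UtpA protein, differed by −0.11, and RLP24, a ribosomal-like protein that holds a place in the large subunit precursor, by −0.10.

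The rest of each role group stayed near 0. The 6 ribonucleoprotein members were all slightly lower, from −0.09 for NHP2 to −0.02 for CBF5, the pseudouridine synthase, and NOP1, the methyltransferase fibrillarin, differed by −0.05. The small subunit members had a median of −0.01. The large subunit members had a median of −0.05, with the lowest values for RPF2 (−0.15), which brings in the 5S ribonucleoprotein, and NOP16 (−0.14), and the highest for RRP14 (0.09). SFP1 differed by −0.01. Among other genes of the pathway, 0 of 45 further small subunit factors and 1 of 52 further large subunit factors passed, the latter being IPI1, lower by 0.23. Of 128 ribosomal protein genes, 16 other RNA polymerase I factors and 19 RNA polymerase III genes, none passed with limma. At an unadjusted p under 0.05 these lists held 2, 0 and 3 genes, and the further small subunit factors 0.

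In Σ1278b with extra FLO8, members were mostly higher than on the second wild type array. Of the 51, 49 were higher (51.5% of all probe sets), with a median of 0.17 and a range of −0.05 to 0.35 on the log2 scale. None reached 1.5-fold, by which 1.15% of all probe sets were higher and 1.0% lower. DBP2, a DEAD-box helicase, read 12.96 in wild type and 13.31 with FLO8, a difference of 0.35. UTP20, a large scaffold protein, differed by 0.30, UTP4 and NOP7 by 0.29 each, and RPA43 by 0.25. NOP1 differed by 0.09, RPA190 by 0.17 and RPA135 by 0.23. The 2 members below 0 (48.5% of all probe sets) were SFP1 at −0.05 and NHP2 at −0.00.

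Extra MSS11 in Σ1278b gave values of the same size against the same wild type array. Of the 51 members, 47 were higher (54.0% of all probe sets), with a median of 0.14. None reached 1.5-fold (2.2% of all probe sets higher, 0.873% lower). DBP2 read 13.31, a difference of 0.35. RPA135, which forms the active centre together with RPA190, read 12.93 in wild type and 13.27 with MSS11, a difference of 0.33. UTP20 differed by 0.27, ERB1, a partner of NOP7 and YTM1 in large subunit maturation, by 0.25, RPA190 and RPA14 by 0.24, and NOP1 by 0.18. The 4 lower members (46.0% of all probe sets) were SFP1 (−0.14), UTP4 (−0.06), NOP4 (−0.05) and UTP9 (−0.03).

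In the mss11 deletion strain 49 of 51 members were lower than in the same wild type (49.9% of all probe sets), with a median of −0.11. None reached 1.5-fold (1.51% of all probe sets higher, 0.655% lower). RRP36 read 10.06 in wild type and 9.67 in the deletion strain, a difference of −0.39. UTP4 read 11.88 and 11.52, a difference of −0.36. Apart from these, differences ran from −0.20 for RPA34 to 0.01, the 2 values above 0 (50.1% of all probe sets) being those of SFP1 and CBF5. NOP1 differed by −0.07, RPA190 by −0.09 and RPA135 by −0.13.

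These 3 comparisons share their only control array, so their directions are not independent of each other. All 3 medians lay within the differences seen between replicate pairs, which reached 0.20. A limma fit over all 12 arrays takes the spread from the replicated groups and assumes that single arrays vary like them. No member passed in it. Of all probe sets, 0.6% were higher and 0.473% lower with FLO8, 1.38% and 0.473% with MSS11, and 0.491% and 0.236% in the deletion strain. The count of higher members also depended on the control. Against each of the 3 first-set wild type arrays, the FLO8 array had 26, 29 and 35 members higher, the MSS11 array 25, 29 and 34, and the deletion array 12, 10 and 16. Further small subunit factors had medians of 0.16, 0.14 and −0.14 in the 3 comparisons, close to those of the members. Ribosomal protein genes had medians of 0.03, 0.01 and −0.03.

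**Figure D3:**
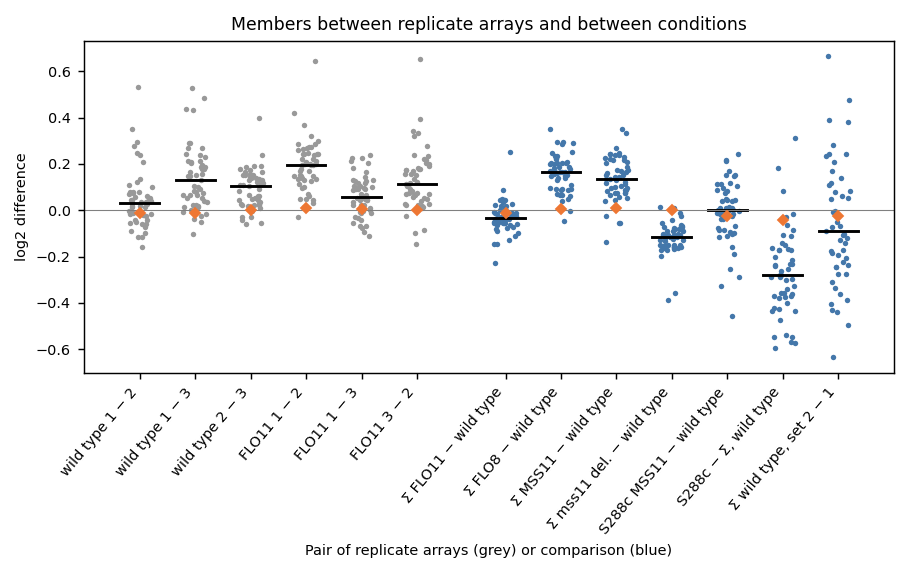
Points are the 51 members, the bar is their median, and the orange diamond is the median of all 5498 probe sets. Grey columns are differences between replicate arrays of the first set, blue columns are the comparisons, both as log2 differences. The replicate medians reach 0.20, and only the S288c comparison, at −0.28, lies farther from 0.

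In S288c with extra MSS11 the members differed from the wild type in both directions, with 27 higher (44.8% of all probe sets) and 24 lower (55.2%), and a median of 0.00. None reached 1.5-fold (2.75% of all probe sets higher, 3.26% lower). UTP15, a UtpA protein that is needed for transcription of the precursor, read 12.24 in the S288c wild type and 11.78 with MSS11, a difference of −0.46. In the 12-array limma fit it was the only member that passed (SE 0.09, adjusted p = 0.0215), and 7.84% of all probe sets were lower and 4.53% higher by that rule. UTP9, of the same complex, differed by −0.33, UTP18, of the UtpB complex, by −0.29, and RPA14 by −0.25. On the other side stood GAR1 and CBF5 of the H/ACA particle, at 0.24 and 0.22, and RRP12, which takes part in export of subunits, at 0.21. NOP1 differed by −0.00, RPA190 by 0.15, RPA135 by 0.12 and SFP1 by −0.01. The a-specific STE2, MFA1 and BAR1 were also lower on the MSS11 array than on the S288c wild type array, as given above. Their part in these differences was not tested.

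UTP15 was also set against its own value in the other strain, with 1 array for each genotype. In Σ1278b it read 12.06 in the second wild type and 12.19 with MSS11, a difference of 0.14. The S288c effect minus the Σ1278b effect was −0.59 (SE 0.13, adjusted p = 0.0483, 12-array limma). It was the only one of 51 members to pass, against 4.77% of all probe sets, and 3 members did so unadjusted, against 23.4%. The members thus passed in smaller shares than all probe sets. The spread behind this p comes only from the wild type and FLO11 replicates of the first set. The call was lost with each array centred on its median (adjusted p = 0.0549, limma) and without any of the 3 wild type replicates or FLO11 replicate 2 or 3 (adjusted p 0.0600 to 0.0900, limma).

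The clearest difference was between the strains. In the S288c wild type 48 of 51 members were lower than in the second Σ1278b wild type (55.1% of all probe sets), with a median of −0.28 against −0.04 for all probe sets. RRP12 read 12.14 in Σ1278b and 11.54 in S288c, a difference of −0.59, and was the 1 member at least 1.5-fold lower (10.4% of all probe sets), with none higher by that fold (10.3%). Centred on the array medians, no member reached that fold. The 12-array limma fit called 15 members lower (24.1% of all probe sets) and 1 higher (18.9%), the lower share being close to that over all probe sets. The median was farther from 0 than that of any replicate pair.

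Every role group was represented among the 15. NOP2, the methyltransferase of the 25S ribosomal RNA, read 12.72 in Σ1278b and 12.17 in S288c, a difference of −0.55 (adjusted p = 0.00559, limma). RPA49 differed by −0.47, ERB1 by −0.44, DBP8 by −0.43, GAR1 by −0.38 and RPA190 by −0.36, each past the threshold. NOP1 at −0.29 and SFP1 at −0.23 passed as well, and RPA135 at −0.14 did not. The member called higher was RPA14, which read 11.74 in Σ1278b and 12.05 in S288c (adjusted p = 0.0321, limma), and the other members above 0 were UTP15 at 0.18 and UTP9 at 0.08.

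A second pair of arrays compared the strains without using either wild type. With extra MSS11 in both, all 51 members were lower in S288c (61.0% of all probe sets), with a median of −0.42 against −0.09 for all probe sets. At least 1.5-fold lower were 7 of them (9.4% of all probe sets), led by RRP36 (10.18 and 9.38, a difference of −0.80) and NOP2 (−0.78). In both pairs 48 members were lower (46.1% of all probe sets). Across the 51 members the 2 strain differences correlated with r = 0.62 and rho = 0.69, against 0.87 and 0.73 across all probe sets. Genes are not independent replicates, and the 4 arrays were normalized together.

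Both S288c arrays lay below all 10 Σ1278b arrays for 30 of 51 members (28.2% of all probe sets) and above all of them for none (15.4%). By role these were 5 of 6 ribonucleoprotein members, 9 of 18 small subunit members, 12 of 19 large subunit members, 3 of 7 polymerase subunits and SFP1. SFP1 read 10.45 and 10.43 in S288c and 10.54 to 10.95 in Σ1278b. Further pathway genes were lower too on the wild type arrays, with medians of −0.30 for 45 small subunit factors, of which 17 passed as lower in the 12-array fit, and −0.38 for 52 large subunit factors, of which 22 did. The largest difference among these was −1.06 for TMA16. The 19 RNA polymerase III genes had a median of −0.24. The 128 ribosomal protein genes had a median of −0.03, with 3 lower and 2 higher in that fit, and the 16 other RNA polymerase I factors a median of 0.02. Each S288c genotype was 1 culture, so strain and culture cannot be told apart for a single pair, and the part of growth stage was not tested. The a-specific genes, STE3 and SAG1 were higher on the same arrays, and their part was not tested either.

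**Figure D4:**
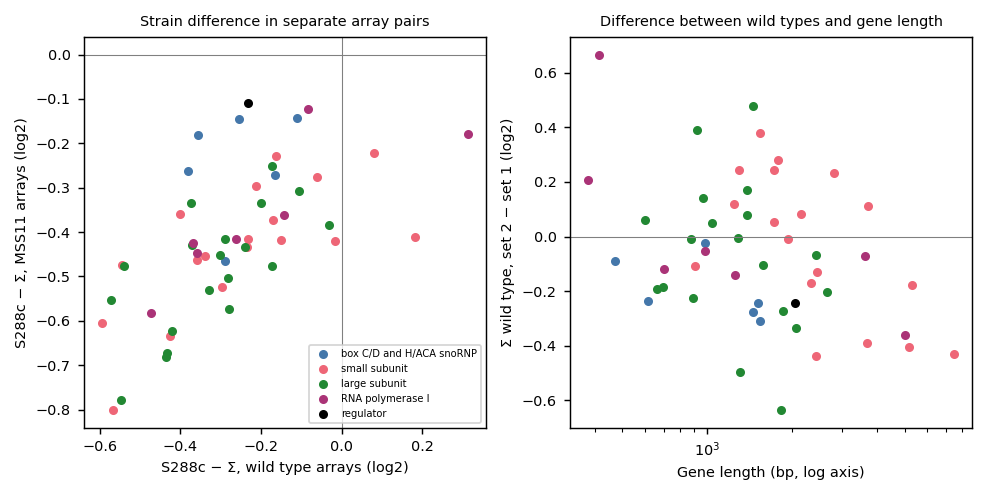
On the left, each member is placed by its log2 difference between S288c and Σ1278b on the wild type arrays (x) and on the MSS11 arrays (y). All 51 points lie below 0 on y, and 3 lie right of 0 on x. On the right, the difference between the second and first Σ1278b wild types (y, log2) is set against gene length (x, bp, log axis).

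The 2 Σ1278b wild types, of the same labelled strain, differed in both directions across the members. Of the 51 members, 18 were higher in the second (45.3% of all probe sets) and 33 lower (54.7%), with a median of −0.09. RPA14 read 11.74 in the second wild type, against 11.00, 11.12 and 11.10 in the first, a difference of 0.67 (1.59-fold). NOP7, a large subunit factor, read 11.47 against 12.23, 12.10 and 11.99, a difference of −0.64. They were the only members at 1.5-fold, with 2.0% of all probe sets higher and 3.35% lower by that fold. The 12-array limma fit called 4 members higher, which were RPA14, NOP8, UTP15 and UTP18 (6.84% of all probe sets). It called 7 lower, which were NOP7, NOP58, CBF5, UTP20, RRP5, RPA190 and SFP1 (11.2%).

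For a minority of members the sets did not overlap in any genotype. For 8 members all 4 Σ1278b arrays of the second set lay above all 6 arrays of the first (12.3% of all probe sets), and for 11 they lay below (15.6%), shares close to those over all probe sets. For the other 32 the sets overlapped. The 8 were UTP9, UTP15, UTP18, UTP21 and DBP8 of the small subunit, NOP8 and MAK16 of the large subunit, and RPA14. NOP8 read 10.47 to 10.66 in the first set and 10.92 to 11.27 in the second. The 11 were NOP58, GAR1, CBF5, UTP20, RRP5, NOP14, NOP4, NOP7, RRP14, RPA190 and SFP1. RRP14 read 12.22 to 12.67 in the first set and 11.85 to 12.10 in the second. Of the 6 ribonucleoprotein members none was higher in the second wild type, and their median was −0.24.

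**Figure D5:**
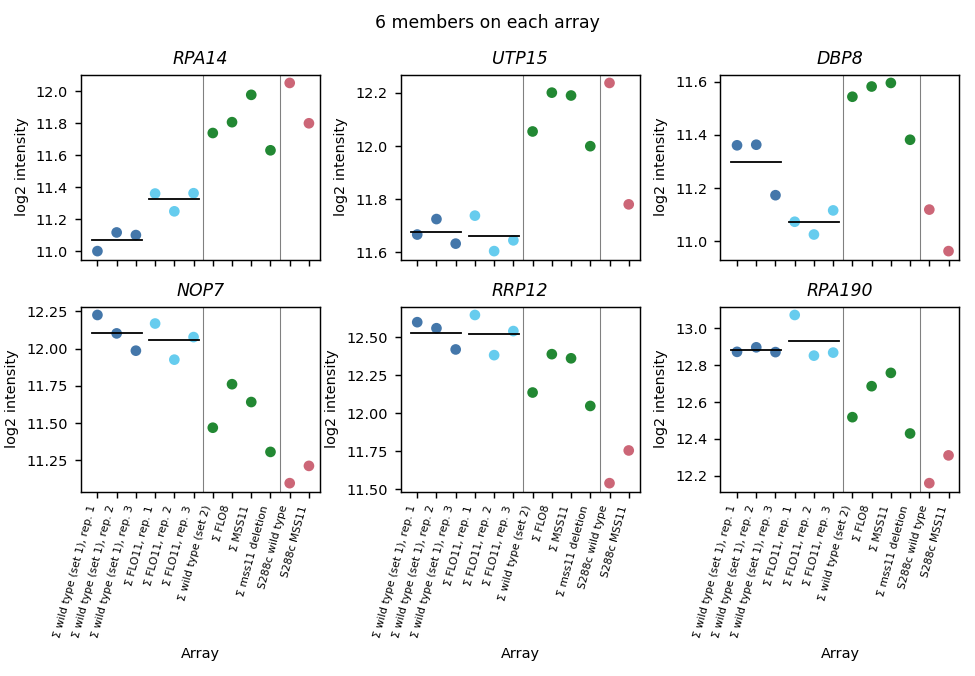
Log2 intensity of 6 members on each array, with dark blue for the first wild type, light blue for FLO11, green for the second Σ1278b set and red for S288c. Horizontal lines are the means of the 3 replicates. RPA14 and UTP15 are higher in the second set than in the first, DBP8 is highest in the second Σ1278b set, NOP7 and RPA190 are highest in the first, and RRP12 is lowest in S288c.

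Differences between the wild types were lower for longer members. Across the 51 members the difference correlated with gene length at r = −0.37 and rho = −0.32, against −0.13 and −0.23 over all probe sets. The 25 longest members had a median of −0.17, with 7 higher and 18 lower, and the 25 shortest a median of −0.01, with 11 higher and 14 lower. The difference was also set against the mean log2 intensity on the first wild type arrays. It correlated at r = −0.46 over the members and 0.00 over all probe sets. That mean is itself subtracted in the difference, so noise common to both adds to a negative correlation, and nothing is concluded from it. The difference between the wild types ran opposite to the MSS11 effect in S288c, which shares no array with it. That correlation was r = −0.68 and rho = −0.67 across the 51 members and −0.03 and −0.01 over all probe sets. The MSS11 effect in S288c itself correlated with intensity on the first wild type arrays, at r = 0.51 over the members and 0.08 over all probe sets. These are correlations across genes on arrays that were normalized together, and genes are not independent replicates. The first and second sets also differed in URA3 and LEU2 as given above, and the part of plasmid, medium or set was not tested.

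The values of SFP1, which is known to activate many of the other members, had the opposite sign to their medians in the second Σ1278b set. It read 10.68 in the wild type, 10.63 with FLO8, 10.54 with MSS11 and 10.69 in the deletion strain. The differences were −0.05, −0.14 and 0.01, they share 1 control array, and none was tested against replicates of its own. Between the wild types of the 2 strains SFP1 differed by −0.23, with the same sign as the members' median of −0.28. Some other regulators of growth genes had larger differences. TOD6, a repressor of ribosome biogenesis genes, differed by 0.33 with FLO8, 0.39 with MSS11 in Σ1278b and −0.55 with MSS11 in S288c, and CRF1, a corepressor of ribosomal protein genes, by −0.85 in that last comparison.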

How the data were processed

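Each of the 12 cultures gave 1 Affymetrix array. The values deposited by the authors are intensity summarised by RMA, which corrects background, quantile normalizes and combines the probes of a set, and they are linear. Which version of RMA was run is not given in the sources used here. Tests had been planned on log2 values, and every deposited intensity was therefore log2 transformed first. Of 10928 probe sets, 5498 had exactly 1 S. cerevisiae gene by annotation, covering 5449 genes, and 12 symbols were updated through the RefSeq R64 gene table, which also gave gene lengths. The 95th percentile of 1746 probe sets listed under genes outside that table served as background, and 3683 probe sets were not listed.

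Groups followed the sample labels. The labels do not tie the second wild type to the single arrays, but it carries the same code series and replicate number. FLO11 overexpression was tested with limma 3.58.1 in R 4.3.3 (two-sided, Benjamini-Hochberg over 5498 probe sets, threshold 0.05), after recovery of known changes in simulated data was checked. Those changes were 2-fold, with independent noise for each probe set. Members here moved together between replicates and differed by less, so the check does not cover that setting. Single arrays were called at 1.5-fold without a test. Beside that, a limma fit over all 12 arrays gave them p-values whose spread comes from the replicated groups alone and is assumed to hold for single arrays. The labels call the arrays biological replicates, and precision is limited by how many arrays there are.

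Named genes were the members past the threshold, the up to 4 largest differences per role, SFP1, RPA190, RPA135 and NOP1 throughout, and up to 2 genes per other list. The members, lists and rule were chosen with earlier results of these data known. Members named for a separation between sets, for movement between replicates or for an opposite sign, and gene lengths and correlations, were chosen after values were seen. Alternatives were other controls, scalings, filters, probe set choices, a replicate block, a 12-array fit and leaving out each replicate. Promoter motifs were not analysed here.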

Additional observations from a re-analysis of the deposited data

Results flagged for a closer look

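UTP15, of the UtpA complex, was singled out because a test of the difference between strains lay just past the threshold for its response to extra MSS11. The S288c effect minus the Σ1278b effect was −0.59 on the log2 scale (SE 0.13, adjusted p = 0.0483, 12-array limma), from −0.46 in S288c and 0.14 in Σ1278b. Each effect rests on 1 array per genotype, with a spread taken from the first set. The call was lost with arrays centred on their medians (adjusted p = 0.0549, limma). It was also lost in 5 of 6 fits that left out 1 replicate array (adjusted p 0.0600 to 0.0900, limma). Without FLO11 replicate 1 it was kept (adjusted p = 0.0460, limma). The S288c wild type array, at 12.24, was the highest of the 12 for this gene, and the S288c array with extra MSS11, at 11.78, lay between both Σ1278b sets.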

How the results depend on the processing

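After FLO11 overexpression the count of members past the threshold was 0 with the wild types of both sets together, with every probe set of the array in the test and with the replicate number as a block, and it was 0 to 1 when each array was left out. Same-numbered arrays did not deviate together (r = 0.03, −0.12 and −0.27), so the numbers were not taken as pairs, and the block reduced the calls over all probe sets from 349 to 208. The members' median ran from −0.08 to 0.02 without each array. With the first wild type arrays as control, the members at 1.5-fold were 3 with FLO8 (6.38% of all probe sets), 2 with MSS11 (7.42%), 3 in the mss11 deletion (6.4%), where the median was −0.20, and 14 in S288c against Σ1278b (24.7%). With all 4 Σ1278b wild type arrays as control there was 1 with MSS11 (5.04%), 1 in the deletion (3.89%) and 10 in S288c (22.7%). The 12-array limma fit called 1 member for MSS11 in S288c, 16 between the strains and 11 between the wild types. At 2-fold the counts between strains and between wild types were 0. Centring on array medians gave 0 members between strains at 1.5-fold and 0 for the difference in MSS11 effect, which was 0 to 1 when each replicate was left out. The count between wild types was 1 to 3 in that case. The cause was not tested for any of these. No called member changed sign under an alternative, but only members past a threshold were checked for this. With FLO8 or MSS11 in Σ1278b, in the deletion and with MSS11 in S288c no member was at 1.5-fold, so no sign was checked there. Of 683 checks of single members, 574 moved by less than the replicate spread or kept a call after FLO11 overexpression, and 99 moved by more. Lost and gained calls were counted only for FLO11 overexpression, where 9 were lost and 1 was gained. In the single-array comparisons members were scored by the size of the shift, not by whether a 1.5-fold call was kept. Depth limits these arrays only through their number, and single arrays show no spread of their own.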
